A study of Mus musculus with 1012 samples.

Results

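The comparison described here set 35 adipose stem and progenitor cells (ASPCs) that had received an adipogenic cocktail for 2 days (ASPC_Post, labelled as DMIR-treated) against 44 ASPCs that had not (ASPC_Pre). Members were chosen by their labels alone, as all whole-cell scRNA-seq libraries of ASPCs in batch 9_1, which gave 79 of the 1012 libraries of the series. The study set out to read the transcriptome from a cytoplasmic biopsy of a living cell (Live-seq) and used ordinary scRNA-seq of lysed cells, made with a Smart-seq2 protocol, as its reference. It covered a macrophage line, a brown preadipocyte line and primary ASPCs, each with its own treatments. All ASPCs were primary cells from the subcutaneous fat of female C57BL/6J mice aged 7 to 10 weeks. No transgene or deletion was named for the whole-cell libraries, whereas the study's sequentially sampled Live-seq ASPCs carried a lentiviral GFP reporter with a barcode. The labels name neither the animal nor the culture of any cell. Each group was therefore 1 sample with no replicate, no test was possible, and every interval given below covers counting error only.

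ASPCs are fibroblast-like cells that can become fat cells. The cocktail holds dexamethasone, which activates the glucocorticoid receptor, 3-isobutyl-1-methylxanthine, which blocks the breakdown of cyclic AMP, insulin, and rosiglitazone, which activates PPARG. In the textbook sequence CEBPB and CEBPD act first, PPARG and CEBPA follow, and the genes of lipid storage come last. Cultured ASPCs are spread out on plastic and carry actin stress fibres, whose genes respond to the transcription factor SRF and its actin-regulated cofactors, and which are taken down as the cells round up.

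Because the strongest groups below were genes known to answer to SRF and to the glucocorticoid receptor, the stretches of their promoters that hold a matching motif are shown first. Promoter windows (250 bases before to 50 bases after the start site, RefSeq, build GRCm38.p6) were searched on both strands. The CArG box, the SRF motif, was found in the windows of 7 of the 23 considered contractile genes with a window and in 1.51% of the 9215 considered genes with one. Of the 23 genes 17 were at least 2-fold lower in ASPC_Post, and of the 7 with a box the following 5 were. Srf and Lima1 also hold a box and were not past 2-fold. The box is in capitals and each line reads 5′ to 3′ on the strand of the gene.
Actg1 (chr11:120348551-120348610, minus strand): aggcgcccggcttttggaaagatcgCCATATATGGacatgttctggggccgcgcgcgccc
Cnn2 (chr10:79988519-79988578, plus strand): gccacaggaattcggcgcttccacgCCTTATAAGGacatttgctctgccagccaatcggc
Myl9 (chr2:156775278-156775337, plus strand): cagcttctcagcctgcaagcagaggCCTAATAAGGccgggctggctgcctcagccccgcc
Vcl (chr14:20929148-20929205, plus strand): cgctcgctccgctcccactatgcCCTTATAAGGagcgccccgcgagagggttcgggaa
Filip1l (chr16:57549155-57549214, plus strand): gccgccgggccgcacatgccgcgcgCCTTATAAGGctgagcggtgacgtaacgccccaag

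A glucocorticoid receptor palindrome (GNACANNNTGTNC) was found in the windows of 4 of the 18 considered glucocorticoid-responsive genes with a window and in 0.391% of all considered genes with one. Of the 18 genes 14 were at least 2-fold higher in ASPC_Post, among them all 4 with the palindrome, which is in capitals.
Sgk1 (chr10:21993677-21993739, plus strand): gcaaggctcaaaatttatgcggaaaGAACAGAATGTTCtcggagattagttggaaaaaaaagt
Mt1 (chr8:94178970-94179032, plus strand): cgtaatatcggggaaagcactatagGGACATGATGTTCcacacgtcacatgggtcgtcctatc
Map3k6 (chr4:133240612-133240674, plus strand): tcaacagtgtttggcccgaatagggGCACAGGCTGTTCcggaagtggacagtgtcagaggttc
Serpina3n (chr12:104406605-104406667, plus strand): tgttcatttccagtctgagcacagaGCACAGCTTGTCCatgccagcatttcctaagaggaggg
The cAMP response element (TGACGTCA) was found in the window of 1 of the 13 considered cAMP-responsive genes with a window, Dio2, and in 3.65% of the considered genes. A match is a description of these letters and not a site that was shown to be used.

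A treated cell had between 422240 and 1333468 counts (median 741774) and an untreated cell between 397324 and 2000873 (median 796343), so that the groups were sequenced to a like depth. A median of 9180 genes was detected in an ASPC_Post cell and of 9610 in an ASPC_Pre cell. A median of 34.8% of the counts in ASPC_Post and 33.8% in ASPC_Pre lay in 20 genes that are set aside here. Libraries without a cell also hold these genes. After they and the ribosomal protein genes were removed, the median cell kept 461732 counts in ASPC_Post and 526443 in ASPC_Pre. One ASPC_Pre cell stood apart, with 84.5% of its counts in the 20 genes and 80990 counts left. It was left out wherever cells were thinned to an equal depth. The median mitochondrial share was 8.71% in ASPC_Post and 3.64% in ASPC_Pre. The labelled cell type was carried by its markers, since all 10 mesenchymal markers passed the filter on low values and their summed level per cell ranged from 2033 to 65645 CPM (counts scaled to a total of 1000000 kept counts) in ASPC_Post and from 782.4 to 51219 CPM in ASPC_Pre.

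The cells also differed in their nuclear RNA. Malat1 and Neat1 are RNAs that stay in the nucleus, and their level was summed with that of Gm26917. This sum is called nuclear RNA here, but where Gm26917 lies in the cell was not tested. The sum had a gap between 2349 and 7831 CPM over the 79 cells. Above the gap lay 18 of 35 ASPC_Post cells (51.4%, exact binomial 95% interval 33.99 to 68.6) against 6 of 44 ASPC_Pre cells (13.6%, 5.17 to 27.4). In ASPC_Post the cells above it had a median of 11439 genes detected and those below it 7224, and in ASPC_Pre the medians were 11668 and 9238. The part of this split in the results was not tested, but it moves with the groups, so the comparison was also made among the cells above it (18 against 6) and among those below it (17 against 38), a choice made after seeing the data. The values from these 2 kinds of cell are given beside the lists and genes that differed most between them.

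A gene was considered when 15% or more of the cells in either group held 2 or more counts of it. Across these 12402 genes, 1997 genes (16.1%) were at least 2-fold higher in the ASPC_Post sum and 1698 (13.7%) at least 2-fold lower, while 8707 lay between and the median log2 ratio was -0.05. In both kinds of cell alike 6.99% of the genes considered were past 2-fold upwards and 7.79% downwards. The same measure between 2 batches of untreated ASPCs, 16 cells of batch 8_8 against the 44 of batch 9_1, put 4308 of 12340 genes (34.9%) past 2-fold in either direction. This was more genes than the 3695 that were past 2-fold between the groups, which is why batch 8_8 is set beside the results. The batch 8_8 sum was shallower, with 4110610 kept counts against 24318488 in ASPC_Pre of batch 9_1 and 17213634 in ASPC_Post. The 2 counts of genes were therefore not taken at a like depth, and the part of depth was not tested. Of the genes considered, 7.72% lay at least 2-fold above and 7.17% at least 2-fold below the untreated sums of both batches.

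**Figure D1:**
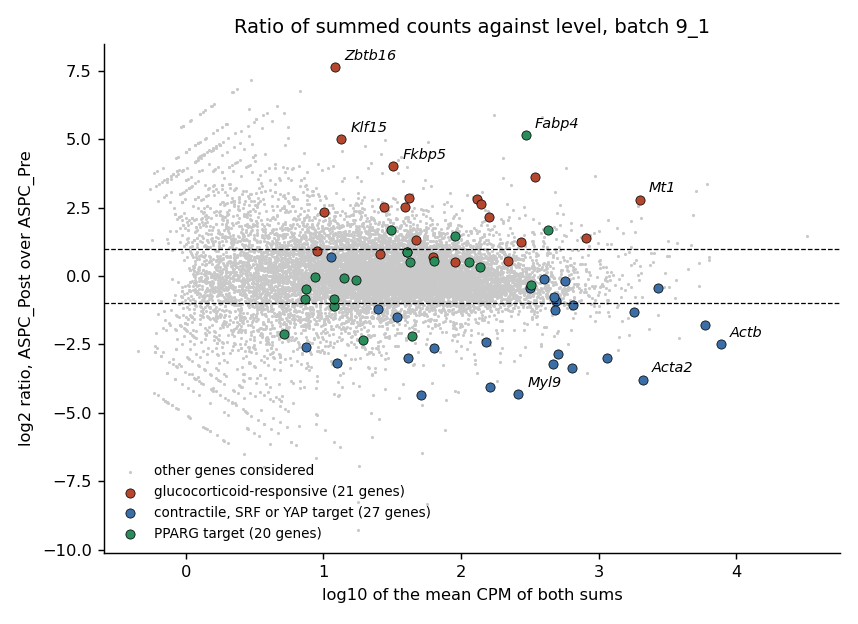
Each point is 1 of the 12402 genes considered, with the log10 of its mean level (CPM) in the 2 sums on the x axis and the log2 ratio of ASPC_Post over ASPC_Pre on the y axis, and dashed lines mark 2-fold. The glucocorticoid-responsive genes (red) lie above 0, the contractile genes (blue) mostly below it, and the PPARG targets (green) on both sides.

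Genes that answer to glucocorticoids had the highest median of the lists with at least 8 genes considered. All 25 on the list were in the table and 21 passed the filter. Of these 15 were at least 2-fold higher in ASPC_Post and none lower, against 16.1% and 13.7% of all genes considered. The median log2 ratio of the list was 2.36 (-0.05 over all genes considered). In both kinds of cell 14 of the 15 were past 2-fold, and 13 were so against both untreated batches. Summed over the list, a cell held between 1580 and 15758 CPM (median 7224) in ASPC_Post and between 257.2 and 3680 CPM (median 1532) in ASPC_Pre, and 32 of the 35 treated cells lay above the highest untreated cell. The 2 metallothioneins made up much of this sum, and without them 20 of the 35 treated cells did so.

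Fkbp5, a co-chaperone that restrains the glucocorticoid receptor and a marker of the induced state, was at 60.8 CPM (exact Poisson 95% interval 57.2 to 64.6) in the ASPC_Post sum and at 3.78 CPM (3.05 to 4.64) in the ASPC_Pre sum. Over single cells it ran from 0 to 200.1 CPM (median 49.2) in ASPC_Post and from 0 to 29.3 CPM (median 0) in ASPC_Pre. The gene (ENSMUSG00000024222, chromosome 17, 28399094 to 28517527, GRCm38) had a count in 82.9% of treated cells (66.4 to 93.4) and 34.1% of untreated cells (20.5 to 49.9). It was thus present in some cells of either group, but 22 treated cells exceeded every untreated one.

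Zbtb16, a zinc finger factor induced by glucocorticoids (ENSMUSG00000066687, chromosome 9, 48654297 to 48836222), was not detected in the ASPC_Pre cells. It was at 24.5 CPM (22.2 to 26.9) in the ASPC_Post sum, with a count in 65.7% of cells (47.8 to 80.9). None of the 44 ASPC_Pre cells held a count. This allows a share of up to about 6.82%, taken as 3 divided by the 44 cells and not as an exact interval. Against a floor of 3 counts over the untreated group Zbtb16 was at least 198.3-fold higher. The highest treated cell reached 89.1 CPM, and in the 12 treated cells without a count the gene was not detected at this depth.

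Klf15, a glucocorticoid-induced factor of adipogenesis and metabolism, was at 26.2 CPM (23.8 to 28.7) in ASPC_Post and at 0.822 CPM (0.502 to 1.27) in ASPC_Pre, a log2 ratio of 4.99. Its cells ran from 0 to 228.6 CPM (median 12.9) and from 0 to 8.17 CPM (median 0). The metal-binding metallothioneins were the most abundant members. Mt1 was at 3481 CPM against 502.8 CPM, with cells from 793.3 to 9120 CPM (median 3127) in ASPC_Post and from 36.01 to 1714 CPM (median 418.1) in ASPC_Pre. Mt2 was at 638.6 CPM against 52.7 CPM and every cell of both groups held a count, so the groups differed in level and not in detection. In 32 of 35 treated cells Mt2 exceeded the highest untreated cell, but 73.5% of its exon bases are shared with another annotated gene and the counting did not use strand.

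The remaining members past 2-fold cover several functions. Tsc22d3, the anti-inflammatory mediator GILZ, had a log2 ratio of 2.15, the clock gene Per1 2.51, glutamine synthetase (Glul) 2.63 and the cortisone-activating enzyme Hsd11b1 2.54. The protease inhibitor Serpina3n (2.83), the cell cycle regulator Rgcc (2.85), the kinase Map3k6 (2.36), the kinase Sgk1 (1.25), the EGFR inhibitor Errfi1 (1.39) and the factor Klf9 (1.32) completed the 15. Serpina3n and Rgcc were uneven, as 1 cell held 37.4% and 40.0% of their ASPC_Post counts. Among cells with high nuclear RNA, Errfi1 had a log2 ratio of 0.46, and against batch 8_8 Sgk1 and Map3k6 had ratios of 0.15 and 0.18.

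Genes that answer to cyclic AMP followed. Of 20 on the list 17 passed the filter, 10 were at least 2-fold higher and 1 was lower, with a median log2 ratio of 1.72. Of all genes considered 16.1% were higher and 13.7% lower. Of the 10 genes 7 were past 2-fold in both kinds of cell, and the median was 1.64 among the cells with low and 0.57 among those with high nuclear RNA. The phosphodiesterases, which break down the cyclic nucleotide and are themselves induced by it, did not move as one: Pde3b (4.78), Pde4d (2.45), Pde10a (1.72) and Pde7a (1.22) were higher and Pde4b (-1.34) lower. Pde4d was at 85.8 CPM against 15.7 CPM and present in 91.4% against 61.4% of cells, whereas 65.7% of the Pde3b counts of ASPC_Post came from 1 cell. The signalling regulator Rgs2 (2.90), the kinase Sik1 (2.01), the orphan receptors Nr4a3 (2.36) and Nr4a2 (1.84) and the deiodinase Dio2 (1.83) were the others, together with Cebpb. Nr4a3 turned to -0.12 among the cells with high nuclear RNA, and the highest Dio2 cell was an untreated one.

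**Figure D2:**
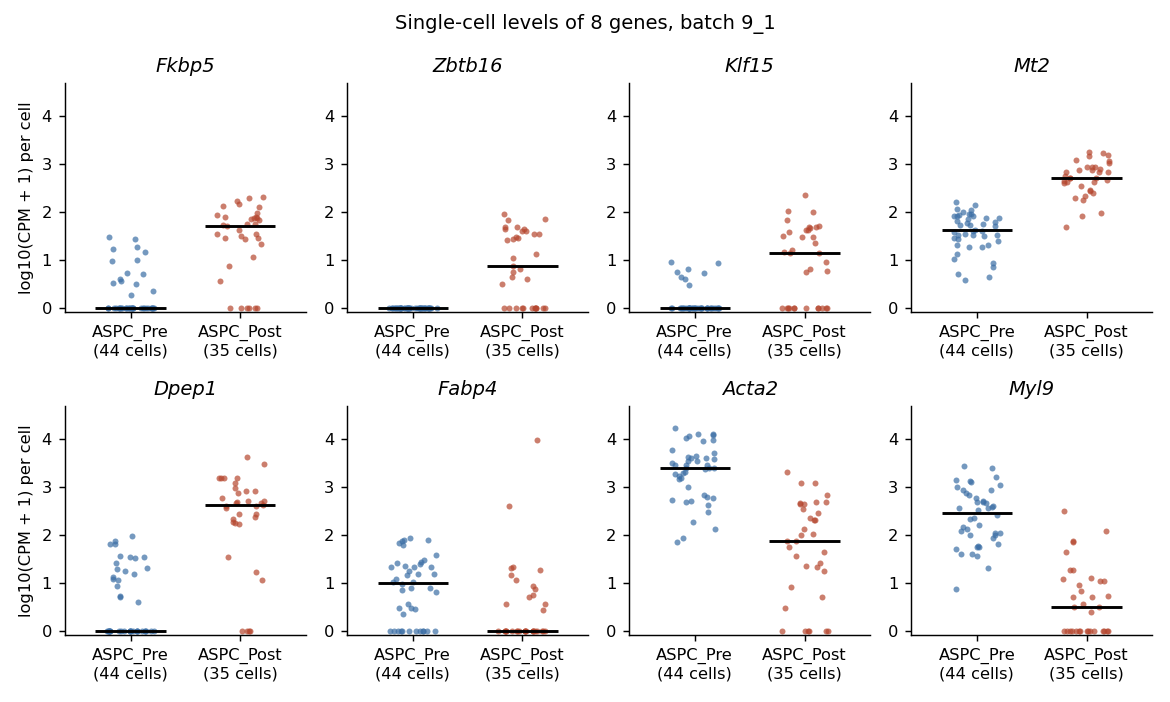
Each point is 1 cell, with the level of a gene as log10(CPM + 1) on the y axis, ASPC_Pre in blue, ASPC_Post in red and black bars for the medians. Fkbp5, Zbtb16, Klf15, Mt2 and Dpep1 are higher in most treated cells, Acta2 and Myl9 lower, and Fabp4 is high in 1 treated cell at 9497 CPM.

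Of the transcription factors of adipogenesis, 29 of 33 passed the filter, 7 were at least 2-fold higher and 4 lower, against 16.1% and 13.7% of all genes considered. The median log2 ratio was 0.24, with 0.15 among the cells with low and 1.01 among those with high nuclear RNA. Cebpb, the early factor, was at 74.3 CPM (70.3 to 78.5) against 14.2 CPM (12.7 to 15.8), and its cells ran from 0 to 327.1 CPM (median 66.0) in ASPC_Post and from 0 to 108.7 CPM (median 9.92) in ASPC_Pre. Cebpa, a factor of the later phase, was at 22.1 CPM (19.9 to 24.4) against 1.36 CPM (0.934 to 1.91), with 54.3% against 22.7% of cells holding a count. The untreated cells of batch 8_8 held Cebpa at 29.4 CPM, so the difference did not extend to that batch (log2 ratio -0.42). Foxo1, an insulin-regulated factor, had a log2 ratio of 2.35 and Egr2 one of 1.20, beside Klf9, Klf15 and Zbtb16 described above. Klf6 (-1.28), Stat5a (-1.23), Nfib (-1.40) and Zfp467 (-2.04) were the 4 that were lower.

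Pparg itself, the target of rosiglitazone, did not reach 2-fold. It was at 8.42 CPM (7.11 to 9.91) in ASPC_Post and at 12.2 CPM (10.8 to 13.6) in ASPC_Pre, with a count in 28.6% against 59.1% of cells, or in 22.9% against 30.2% once every cell was thinned to 100000 counts. Its log2 ratio was -0.53 in the sums, -2.68 among the cells with low and 0.98 among those with high nuclear RNA. Of its ASPC_Post counts 70.3% lay in 1 cell with high nuclear RNA, and without the highest cell of each group the ratio of the sums was -2.11.

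Genes switched on by PPARG showed no common direction. Of 34 on the list 20 passed the filter, with a median log2 ratio of -0.06. Of the 20 genes 4 were at least 2-fold higher and 4 lower, near the shares over all genes considered (16.1% and 13.7%). Mgst1, a glutathione transferase, was at 647.5 CPM against 202.03 CPM and in every treated cell, and Hilpda, which holds back lipolysis, was at 46.998 CPM against 14.6 CPM. Angptl4, an inhibitor of lipoprotein lipase, was at 134 CPM against 48.2 CPM, but 55.7% of its counts came from 1 treated cell and its ratio among cells with high nuclear RNA was 0.10. Fabp5 (-2.33), Ephx2 (-2.12) and Agpat2 (-1.11) were among those that were lower.

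Fabp4, the fatty acid binding protein of fat cells and a known marker of adipogenesis, rested on few cells. The gene (ENSMUSG00000062515, chromosome 3, 10204088 to 10208576) was at 571.9 CPM (560.6 to 583.3) in the ASPC_Post sum and at 15.996 CPM (14.4 to 17.7) in the ASPC_Pre sum. One treated cell held 9497 CPM and 97.5% of the counts, the next held 390 CPM, and the other 33 held between 0 and 19.99 CPM. A count was found in 40.0% of treated cells (23.9 to 57.9) and 72.7% of untreated cells (57.2 to 85.0), and without the highest cell of each group the log2 ratio went from 5.16 to -0.04. Fabp4 thus did not mark the treated cells as a group, whereas Fkbp5 and Zbtb16 did in most of them.

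The cell with the highest Fabp4 was also high in other genes of the fat cell. It held 2036 CPM of the lipid droplet protein Plin2 and 4157 CPM of the desaturase Scd1, the highest values of all treated cells, with 153.4 CPM of Cebpa, 100.95 CPM of Pparg and 616.6 CPM of lipoprotein lipase (Lpl). Its summed PPARG target level was 15552 CPM against a treated median of 1324 CPM, while its Acta2 was at 1.98 CPM. Adipoq, Cidec and Cd36 had no count in it. Among the treated Live-seq biopsies of batch 9_4, 1 had a like profile, with 10115 CPM of Fabp4, 2829 CPM of Plin2, 4805 CPM of Scd1 and 931.2 CPM of Lpl. Its summed PPARG target level was 17683 CPM. Both cells were singled out after their values had been seen.

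Markers of mature fat cells were nearly absent. Adipoq, Cidec, Lep and Adig were listed at 0 in both groups, and 4 of the 15 markers passed the filter. Among these Adipor2, an adiponectin receptor that is widely expressed, was at 66.2 CPM against 30.8 CPM, and Adrb3 was at 0.116 CPM in ASPC_Post, from 2 counts, and at 6.70 CPM in ASPC_Pre (log2 ratio -5.85, counting interval -8.91 to -3.97).

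Genes of lipid metabolism were mostly within 2-fold. Of 23 genes of fatty acid and triglyceride synthesis 21 passed the filter, 6 were at least 2-fold higher and Agpat2 lower (median 0.28). Of all genes considered 16.1% were higher and 13.7% lower. Scd1, which makes monounsaturated fatty acids, was at 1001.2 CPM (986.4 to 1016) against 261.5 CPM (255.1 to 268.04), and its cells ran from 68.8 to 4157 CPM (median 753.7) and from 0 to 2475 CPM (median 210.1). Scd2 (1.31), the acetyl-CoA carboxylase Acaca (1.21), Dgat1 (1.33), Acsl3 (1.56) and Gpam (1.05) were the others, and of the 6 only Scd1 was past 2-fold against both untreated batches. Of 17 genes of fatty acid oxidation that passed, none was 2-fold higher and 2 were lower, Acaa2 (-1.47) and Ech1 (-1.25), with a median of -0.51. Of 24 genes of cholesterol synthesis and uptake only Fdft1 (-1.24) was past 2-fold.

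The insulin and IGF pathway held genes past 2-fold in each direction. Of 21 genes of insulin and IGF signalling that passed, 7 were at least 2-fold higher and 4 lower (median 0.68). Of all genes considered 16.1% were higher and 13.7% lower, so the share lower was not far from that. The adaptor Irs2 was at 26.03 CPM against 2.18 CPM and present in 80.0% against 27.3% of cells, and the insulin receptor (Insr) was at 49.2 CPM against 9.33 CPM. The binding protein Igfbp3 was at 38.5 CPM against 1.44 CPM, and Igfbp2 at 1.16 CPM against 102.7 CPM, of which 74.4% came from 1 untreated cell. Grb10 (-2.09) and Grb14 (-1.90), adaptors that damp the insulin receptor, were lower, and so was Igf1 (-1.22). Igfbp6 (1.44), Pik3ca (1.59), Igf1r (1.19) and Igf2r (1.27) were higher, the last with ratios of 0.46 and 0.47 in the 2 kinds of cell.

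Genes of the contractile cytoskeleton had the lowest median of the lists with at least 8 genes considered. All 28 on the list were in the table and 27 passed the filter. Of these 20 were at least 2-fold lower in ASPC_Post and none higher, against 13.7% and 16.1% of all genes considered. The median log2 ratio of the list was -2.40. Of the 20 genes 17 were at least 2-fold lower in both kinds of cell and 19 against both untreated batches. Summed over the list, a cell held between 6152 and 20565 CPM (median 11399) in ASPC_Post and between 15987 and 73114 CPM (median 40744) in ASPC_Pre. In 29 of 35 treated cells the sum was below that of the lowest untreated cell, and without Actb, the largest member, in 27 of 35. None of the treated cells lay above the untreated median.

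**Figure D3:**
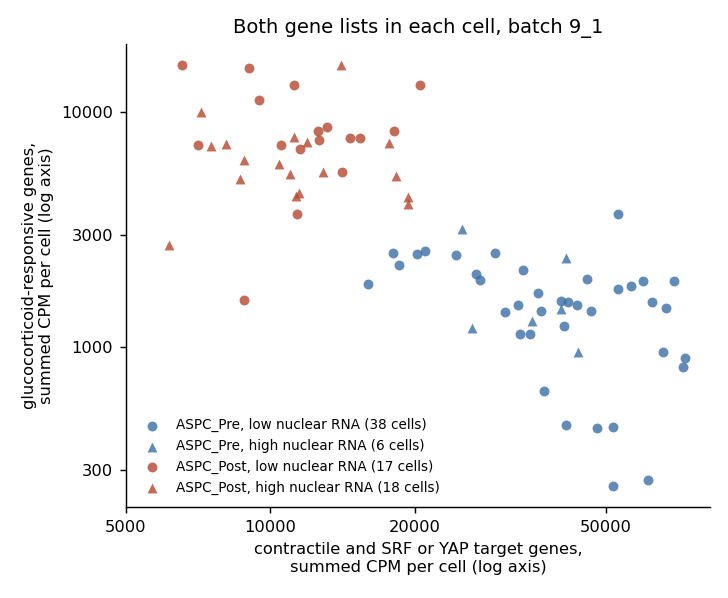
Each point is 1 cell, with the summed CPM of the contractile genes on the x axis and of the glucocorticoid-responsive genes on the y axis, both log axes, and triangles for cells with high nuclear RNA. Treated cells (red) lie at the upper left and untreated cells (blue) at the lower right, and triangles and circles of 1 colour mix.

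Smooth muscle actin (Acta2, ENSMUSG00000035783, chromosome 19, 34241090 to 34255590) was at 283.8 CPM (275.9 to 291.9) in ASPC_Post and at 3910 CPM (3885 to 3935) in ASPC_Pre, 13.8-fold lower. Its treated cells ran from 0 to 2029 CPM (median 75.0) and its untreated cells from 69.4 to 16718 CPM (median 2462), so the ranges overlapped. Myl9, a myosin light chain, was at 24.8 CPM (22.5 to 27.3) against 495.5 CPM (486.7 to 504.4), with a count in 57.1% of treated and all untreated cells. The CArG-bearing Cnn2, a calponin, was at 115 CPM against 1170 CPM and present in 94.3% of treated and all untreated cells. The 2 cytoplasmic actins went the same way, Actb from 13114 CPM in the untreated sum to 2341 CPM in the treated and Actg1 from 835.4 CPM to 90.05 CPM, with the reservation that these near-identical genes share reads that a count of uniquely mapped reads leaves out. No treated cell exceeded the highest untreated cell in any of these 5 genes.

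The other members past 2-fold were tropomyosins (Tpm1 -3.00, Tpm2 -2.86, Tpm4 -1.33), smooth muscle proteins (Actg2 -4.36, Cnn1 -4.04, Mylk -3.18, Lmod1 -1.48), the YAP target Ankrd1 (-2.98), the adhesion protein Vcl (-2.40), Tagln (-2.65), desmin (Des, -2.61), vimentin (Vim, -1.80), Flna (-1.24), Filip1l (-1.19) and Myh9 (-1.05). Tagln shares 67.9% of its exon bases with another annotated gene. Lmod1 had a ratio of 0.37 among the cells with high nuclear RNA, and 1 cell held 74.04% of its treated counts.

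Collagens past 2-fold lay in each direction. Of 17 collagens that passed the filter 6 were at least 2-fold higher and 2 lower (median 0.63). Of all genes considered 16.1% were higher and 13.7% lower, so the share of collagens lower was near that. The collagen median moved with the nuclear RNA and was -0.82 among the cells with low and 0.25 among those with high nuclear RNA. Col3a1, a fibrillar collagen, was at 2746 CPM against 687.01 CPM, with a log2 ratio of 2.00 in the sums, of -0.02 in the cells with low and of 3.03 in those with high nuclear RNA. The basement membrane collagens Col4a1 (1.57) and Col4a2 (1.47) had ratios of 0.73 and 0.07 among the cells with low nuclear RNA. Col8a1 (-3.54) and Col6a3 (-2.35) were lower in both kinds of cell. No collagen was past 2-fold upwards in both kinds of cell.

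Of 26 matrix glycoproteins and proteoglycans considered 5 were at least 2-fold higher and 4 lower (median 0.43), shares near the 16.1% and 13.7% over all genes considered. Laminin gamma 1 (Lamc1) was at 486.4 CPM against 84.5 CPM, versican (Vcan) at 903.7 CPM against 189.5 CPM and Thbs2 at 3280 CPM against 746.1 CPM, and all 3 were past 2-fold in both kinds of cell. Its relative Thbs1, an SRF and TGF-beta responsive gene, went the other way, from 6352 CPM (6320 to 6383) in ASPC_Pre to 1312 CPM (1295 to 1329) in ASPC_Post, as did tenascin C (Tnc, -2.57). Of 26 matrix proteases, inhibitors and crosslinkers considered 5 were higher, among them the collagen hydroxylase P4ha2 (2.32) and the procollagen protease Adamts2 (2.08), and 5 lower, among them the inhibitor Timp3 (2382 CPM to 367.9 CPM) and the urokinase Plau (-2.77). Timp3 was at 176 CPM in the untreated cells of batch 8_8, which lies below the treated level.

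Several markers of progenitors were lower. Of 28 on the list 22 passed the filter, 11 were at least 2-fold lower and 2 higher (median -0.95). Of all genes considered 13.7% were lower and 16.1% higher. The hyaluronan receptor Cd44 had a log2 ratio of -2.10, the tissue factor gene F3 at 187.2 CPM against 800.6 CPM, and Thy1 at 61.2 CPM against 193.8 CPM. Cd34 was at 3.02 CPM against 17.7 CPM and present in 14.3% against 27.3% of cells. Of the 11 genes 7 were lower in both kinds of cell and 4 against both untreated batches, and Cd55 and Icam1 were above their level in batch 8_8 (log2 ratios 3.22 and 0.80). Cd24a (1.68) and Fmo2 were the 2 that were higher.

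Counting only genes that reached 50 CPM and were detected in 50% or more of the cells of the higher group, 4.47% of the genes considered were at least 2-fold higher in ASPC_Post. Fmo2, a flavin monooxygenase, led with 340.5 CPM against 5.84 CPM, although 71.4% of its treated counts came from 1 cell. Dpep1, a membrane dipeptidase, was next, at 760 CPM (746.6 to 772.7) against 13.5 CPM (12.1 to 15.1). Its treated cells ran from 0 to 4137 CPM (median 426.6) and its untreated cells from 0 to 93.5 CPM (median 0), and 28 of 35 treated cells exceeded every untreated one. Then came the matrix protein Spon1 (4.98, with 76.2% of counts in 1 cell), lubricin (Prg4, 4.32), the cystine carrier Slc7a11 (4.23), Fkbp5, Neat1 (3.96), Cyp2d22 (3.76), Ctla2a (3.65), Mt2, Gpm6b (3.59), Kcnq1ot1 (3.52), the steroid sulphate carrier Slc10a6 (3.46), Malat1 (3.37) and the pentraxin Ptx3 (3.32).

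The nuclear RNAs in this row belong to the split described above. Malat1 was at 11217 CPM against 1082 CPM in the sums, but its log2 ratio was -0.06 among the cells with low and 1.79 among those with high nuclear RNA, a split that used Malat1 itself. Ptx3 was at 808.9 CPM in the untreated cells of batch 8_8 and at 416.1 CPM in ASPC_Post (log2 ratio -0.96). Dpep1, Prg4, Slc7a11, Cyp2d22, Ctla2a, Gpm6b and Slc10a6 were past 2-fold in both kinds of cell and against both untreated batches.

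By the same rule 3.75% were at least 2-fold lower, and the 15 with the lowest ratios were led by Acta1, skeletal muscle actin, at 0.349 CPM against 113.2 CPM, of which 45.5% came from 1 untreated cell. The WNT antagonist Dkk2 was at 3.08 CPM against 150.5 CPM, the small heat shock protein Hspb7 at 3.78 CPM against 100.01 CPM, and transglutaminase 2 (Tgm2) at 6.51 CPM against 149.97 CPM. Then came Anxa8 (-4.46), Actg2, Myl9, the sphingosine receptor S1pr3 (-4.23), Galnt18 (-4.21), the hyaluronan-degrading Cemip (-4.12), Cnn1, the retinal dehydrogenase Aldh1a3 (-3.94), Gpr176 (-3.90), Tgfb1i1 (-3.82) and Acta2. All 15 were past 2-fold in both kinds of cell, and against batch 8_8 only Anxa8 was not, with a log2 ratio of 2.08.

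**Figure D4:**
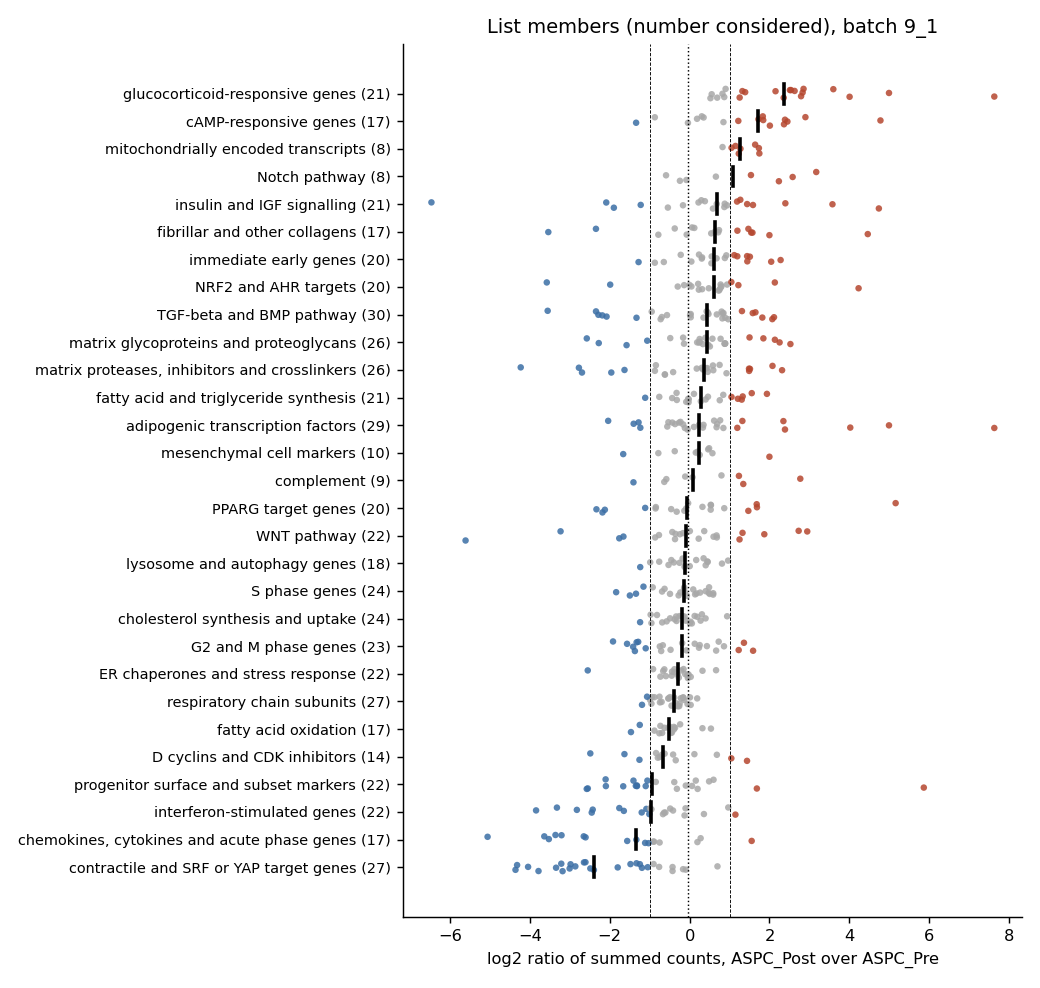
Each row is a gene list with at least 8 genes considered (number in brackets), each point a gene at its log2 ratio of ASPC_Post over ASPC_Pre, red above 2-fold, blue below and grey between, with a black bar for the median and a dotted line for the median of all genes (-0.05). The glucocorticoid list has the highest median (2.36) and the contractile list the lowest (-2.40).

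In the WNT and in the TGF-beta and BMP pathways the shares past 2-fold were near those over all genes considered (16.1% higher and 13.7% lower), so the members are given singly. Of 22 WNT genes considered 5 were at least 2-fold higher, all of them receptors, with Fzd1 at 194.6 CPM against 25.3 CPM and the co-receptor Lrp6 at 130.1 CPM against 35.6 CPM, and 4 lower, the WNT-induced Ccn4 (-3.23) and the secreted antagonists Dkk2, Dkk3 (-1.76) and Frzb (-1.66). Dkk3 and Frzb were higher than in batch 8_8 (2.997 and 2.84). The WNT median was -0.41 among the cells with low and 0.70 among those with high nuclear RNA. Of 30 TGF-beta and BMP genes 6 were higher, among them the co-receptor Tgfbr3 (2.07) and the BMP target Id2 (2.11), and 6 lower, among them the BMP antagonist Grem1, at 129 CPM against 1515 CPM. Grem1 was at 107.5 CPM in batch 8_8, and Id2 was also higher there than in the treated cells (log2 ratio -1.08). Of 8 Notch genes considered 4 were higher and none lower (median 1.10), namely Jag1 (3.17), Notch3 (2.58), Notch1 (2.24) and Notch2 (1.54), while the target Hes1 was at 32.2 CPM against 48.4 CPM. Of the 4 genes 2 were past 2-fold in both kinds of cell.

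Secreted inflammatory genes were mostly lower. Of 25 chemokines, cytokines and acute phase genes 17 passed the filter, 11 were at least 2-fold lower and Cxcl1 (1.55) higher (median -1.33). Of all genes considered 13.7% were lower and 16.1% higher. Interleukin 6 (Il6) was at 0.523 CPM against 17.4 CPM and present in 8.57% against 63.6% of cells, Ccl11 was at 24.6 CPM against 226.99 CPM, Cxcl12 at 90.2 CPM against 266.3 CPM and Ccl2 at 380.8 CPM against 960 CPM. Of 22 interferon-stimulated genes considered 10 were lower and 1 higher (median -0.97), with Irf7 at 3.83 CPM against 38.4 CPM and Ifit3 at 14.3 CPM against 78.5 CPM. The 1 higher gene, Ifit2, was in 42.9% of treated and 77.3% of untreated cells, and a single treated cell held 4069 CPM and 92.7% of its counts. Both groups depended on which untreated batch was used, as 4 of the 11 chemokine genes and none of the 10 interferon genes were also 2-fold lower than in batch 8_8.

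Cell cycle genes were low in either group. Of 24 S phase genes considered 4 were at least 2-fold lower, a share near the 13.7% over all genes considered. Of 23 G2 and M phase genes 7 were lower and 3 higher, where 16.1% of all genes considered were higher. The medians were -0.13 and -0.19. These pooled medians hid opposite signs, as the S phase median was 0.19 among the cells with low and -1.10 among those with high nuclear RNA, and the G2 and M phase median 0.15 and -1.60. Mki67, one of the 3, had counts in 2 of 35 treated cells (830 and 183 CPM) and in 20.5% of untreated cells. The untreated cells of batch 8_8 held 3379 CPM over the G2 and M list, against 404.04 CPM in ASPC_Post and 426.79 CPM in ASPC_Pre of batch 9_1. Single cells reached 4888 CPM of this list in ASPC_Post (median 77.6) and 3288 CPM in ASPC_Pre (median 96.2), so the sums rest on few cells. In the Live-seq contrast described below 14 G2 and M phase genes were at least 2-fold lower and 1 higher. Of the S phase genes 8 were lower there and 1 higher, against 21.1% and 16% of all genes with a Live-seq ratio. Cyclin D1 (Ccnd1) was at 179.97 CPM against 1008.7 CPM and the inhibitor p21 (Cdkn1a) at 461.8 CPM against 1431 CPM, so that a driver and a brake of the cycle were both lower, though batch 8_8 held them at 181.5 CPM and 456.9 CPM.

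Of 13 mitochondrially encoded transcripts on the list 10 were in the table used and 8 were considered. Of the 8 genes 7 were at least 2-fold higher (median 1.25), from mt-Cytb (1.05) to mt-Nd4 (1.75). Only 3 were so in both kinds of cell, 3 when single cells were averaged and 1 against both untreated batches. By contrast none of 27 nuclear-encoded subunits of the respiratory chain was higher and 2 were lower (median -0.39). The mitochondrial share of counts given above was also higher in ASPC_Post. It was taken over all counts, before the 20 genes were set aside, and so covers genes outside this list. Its part was not tested. Batch 8_8 held the summed list at 17564 CPM, ASPC_Post at 20974 CPM and ASPC_Pre of batch 9_1 at 9092 CPM. Of 20 immediate early genes considered 7 were higher and 1 lower, among them Egr1 (2.28), Jund (2.04) and Fos (1.44). In both kinds of cell 3 of the 7 were past 2-fold, and Egr1 had a count in fewer of the treated cells (21 of 35) than of the untreated ones (30 of 44). Of 20 NRF2 and AHR targets 4 were higher, led by Slc7a11 and Srxn1 (2.13), and 2 lower, Nqo1 (-1.99) and Ahrr (-3.58). These shares were near the 16.1% and 13.7% over all genes considered. Among the complement genes C4b (1.34) and C2 (1.24) were higher and Cd55 lower. Of 22 genes of endoplasmic reticulum chaperones and stress only Phgdh (-2.55) and of 18 lysosome and autophagy genes only Ctsk (-1.24) passed 2-fold, both downwards. Of 14 D cyclins and inhibitors Trp53inp1 (1.44) and Cdkn2d (1.05) were higher, and Ccnd1, Cdkn1a and Cdkn2a (-1.26) lower. Over all genes considered 16.1% were higher and 13.7% lower.

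Markers of other cell types were scarce in both groups. Of 10 leukocyte markers 4 were considered and none was past 2-fold, their sum per cell ran from 0 to 219.2 CPM in ASPC_Post and from 0 to 203.3 CPM in ASPC_Pre, and Tyrobp was at 0 in both. Of 10 endothelial markers 2 were considered and none was past 2-fold, with sums from 0 to 66.0 and from 0 to 212.99 CPM and Cdh5 and Tie1 at 0. Of 8 mural markers in the table Notch3 was higher and Des and Cspg4 were lower, with sums up to 251.4 and 597.1 CPM and Kcnj8 and Higd1b at 0. Of 7 mesothelial markers only the keratin Krt19 was considered, at 0.290 CPM against 36.02 CPM, while Krt8, Krt18 and Wt1 were at 0 in both. Of 6 Schwann cell markers 3 were considered and S100b (-2.82) was lower, with sums up to 707.5 and 810.2 CPM, mostly of Ncam1, and Sox10 at 0. Of 3 skeletal muscle markers Acta1 and Des were lower and Ckm was at 0, and neither of 2 red blood cell markers was considered.

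The same treatment was also sampled by Live-seq in batch 9_4, as 37 ASPC_Post and 43 ASPC_Pre biopsies. By their labels 31 of the untreated and 24 of the treated biopsies belonged to pairs of extractions from 1 cell. In the study's scheme such cells were sampled before and after induction. For 9 pairs both biopsies are present, so these groups share cells, and most of the treated ones had been biopsied before. This is a count of labels, whereas the study counted its pairs by quality and recovered barcodes. In the study, ASPCs for sequential sampling were chosen by their lentiviral GFP reporter, which holds a barcode. The labels do not say whether the Live-seq cells shared a culture with the whole cells. There 1965 of 12267 genes (16%) were at least 2-fold higher and 2588 (21.1%) at least 2-fold lower, but TMM factors gave 19.5% and 17.5% and median-of-ratios factors 19.1% and 17.8%, so the direction of the balance depended on the scaling. The log2 ratios of both techniques had a Pearson r of 0.549 over these genes, which share depth and level and are not replicates. Of the 1904 genes higher in whole cells that had a Live-seq ratio 50.2% were also 2-fold higher there, and of the 1670 lower ones 62.2% were also 2-fold lower. Of the glucocorticoid list 16 members were past 2-fold upwards in Live-seq (median 2.40) and of the contractile list 19 downwards (median -2.04). Side by side, the log2 ratios were 4.01 and 4.04 for Fkbp5, 5.81 and 6.00 for Dpep1, 2.79 and 2.69 for Mt1, -3.78 and -3.80 for Acta2 and -4.32 and -4.55 for Myl9, whole cells first. Cebpb (2.39 and 0.55), Sik1 (2.01 and 0.19) and Pde4b (-1.34 and 1.42) were apart, and Zbtb16 again had no count in the untreated Live-seq cells and 23.1 CPM in the treated ones.

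**Figure D5:**
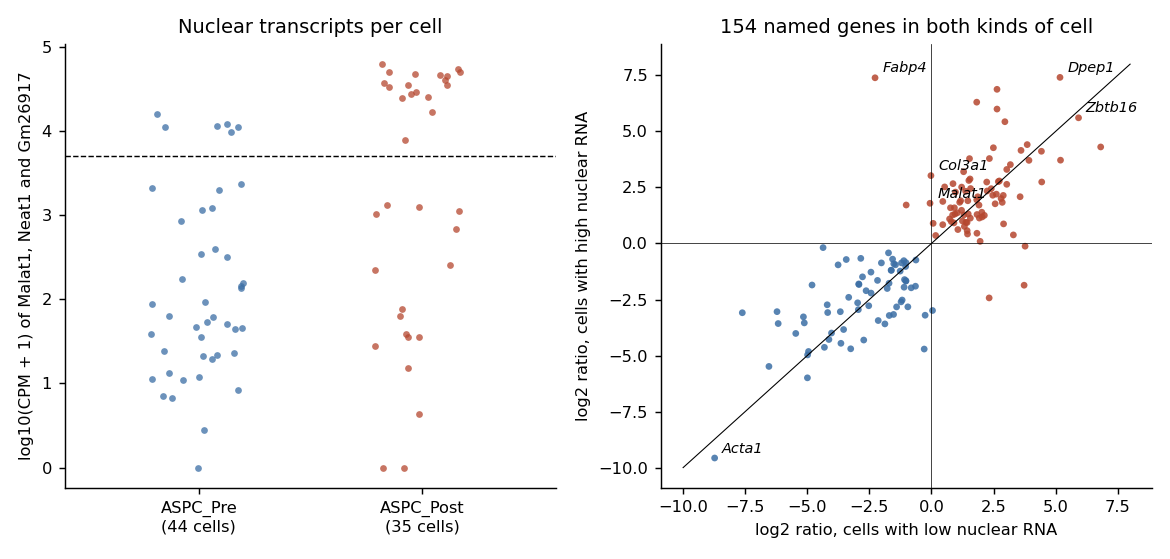
On the left each point is 1 cell, with log10(CPM + 1) of summed Malat1, Neat1 and Gm26917 on the y axis and a dashed line at 5000 CPM. On the right each point is a named gene at its log2 ratio (ASPC_Post over ASPC_Pre) among the cells with low (x) and high (y) nuclear RNA. Genes higher in the sums are red and genes lower are blue, and 94.8% of them have the same sign in both. The named genes were picked for being past 2-fold in the sums of these same cells, so this share was largely set by the choice. Over all genes considered 6.99% were past 2-fold upwards and 7.79% downwards in both kinds of cell.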

How the data were processed

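Whole cells were lysed, amplified with a Smart-seq2 protocol and sequenced one library per cell. Per the submitters' processing notes and the study's methods, reads were demultiplexed with bcl2fastq 2.19.1, aligned to mm10 (GRCm38) with STAR 2.6.1c and assigned to genes by HTSeq, ignoring strand, and cells were filtered before deposit. The deposited values are raw counts per gene, and 312 columns in 8 groups were used while 700 were not. Before scaling, 20 genes that also appear in cell-free control libraries and 91 that encode ribosomal proteins were removed, and the remaining counts were summed per group and scaled to a total of 1000000 (CPM). A gene was considered when 15% or more of the cells in either group held 2 or more counts of it. With 1 sample per group no test was run, and a 2-fold limit describes size only. Poisson and Clopper-Pearson exact 95% intervals cover counting error. For shares, cells were also thinned to 100000 counts. No doublet caller was applied.

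The members and the gene lists were chosen with earlier results of these data known. Genes were named by rule: the markers and the members past 2-fold of the glucocorticoid, cAMP, PPARG and transcription factor lists, the 15 highest and 15 lowest ratios among genes of at least 50 CPM and present in at least 50% of cells, up to 4 members past 2-fold of every other list, and defining markers of other cell types. Further genes were named after their values had been seen, and some genes that the rule names are not reported here. Alternatives changed the scaling, the filter, the cells and the limit. The computations used Python 3.11.15, numpy 2.4.6, pandas 2.3.3, scipy 1.17.1, R 4.3.3 and edgeR 4.0.16 (TMM factors only), and the scripts were tested on simulated data.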

Additional observations from a re-analysis of the deposited data

How the results depend on the processing

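No paired analysis was possible because no result comes from a test, each group is 1 sample, and no whole cell carries a pair label. Of 1704 values of named genes under 10 alternatives and a further 2 chosen after seeing the data, 1693 kept their sign. These genes were named for a ratio past 2-fold in the same data, and several alternatives barely move a ratio. Most signs were thus fixed by the choice of genes, and the count is no measure of how stable other genes are. Without the highest cell of each gene, the log2 ratio went to -0.042 for Fabp4 and -2.55 for Ifit2, and with both untreated batches summed to -0.74 for Mki67. Among cells with low nuclear RNA it was -2.27 for Fabp4, -1.02 for C2, -0.021 for Col3a1, -0.057 for Malat1 and 0.043 for Spp1, and among cells with high nuclear RNA -2.43 for Ifit2, -1.86 for Mki67 and -0.12 for Nr4a3. The median log2 ratio of all genes was -0.0001 with median-of-ratios factors, 0.030 with a filter of 1 count, -0.070 with a filter of 50% of cells, -0.12 without highest cells, -0.076 with both untreated batches, and -0.14 and 0.021 among cells with low and high nuclear RNA. With the filter of 1 count 23.3% of the genes considered were higher and 16.7% lower, 40.3% differed between untreated batches, and 7 PPARG targets were higher. With the filter of 50% of cells 12.7% were higher and 10.5% lower, 27% differed between batches, 13% were higher and 16.1% lower in Live-seq, 6 cAMP genes were higher and 7 chemokine genes lower. At a 4-fold limit 4.99% were higher and 4.61% lower, 11.8% differed between batches, and 6.15% were higher and 8.23% lower in Live-seq. At that limit 6 cAMP genes, 1 PPARG target, 1 collagen and 0 mitochondrial transcripts were higher, and 7 chemokine and 5 interferon genes lower. Among cells with low nuclear RNA 21.3% of genes, 8 PPARG targets and 6 collagens were lower and 0 collagens higher, and among cells with high nuclear RNA 3 collagens were higher, 4 lower and 3 mitochondrial transcripts higher. Averaging single cells left 3 mitochondrial transcripts higher. Of the other list counts 78.4% stayed within 1.5 times. The cause of these changes was not tested, beyond the fewer or more genes and cells that each alternative takes in. Neither group has a second culture or animal, so the spread between cultures is unknown.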
